A study of Mus musculus with 13 samples.

Results

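Nucleotide excision repair removes the bulky lesions that ultraviolet light leaves in DNA, and 10 of its core genes were followed over 48 h in the back skin of mice: Xpa, Xpc, Ddb1, Ddb2, Ercc1, Ercc2, Ercc3, Ercc4, Ercc5 and Ercc8. They were chosen by name, and each had 1 probe annotated with its symbol alone, among 35557 probes in all. All 10 passed the filter on dim probes and belong to the 16322 genes tested. The mice were male C57Bl6 animals aged 30 days after birth, whose hair follicles were growing (anagen), kept in 12 h of light and 12 h of dark. Whole back skin was collected at 4 h steps between ZT2 and ZT50, with ZT0 the moment of lights on. RNA of 3 mice was pooled in equal amounts per time, which gave 13 pools from 39 mice, 6 taken in the dark and 7 in the light, with 1 array each. The labels name no mutation, drug or irradiation in any pool, so what follows is the resting level of these transcripts. A pool averages 3 mice and all cell types of the skin, so differences among individual mice cannot be read from it, and fewer cells of a type and less RNA per cell cannot be told apart.

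The repair genes act in successive steps. XPC finds damage anywhere in the genome, helped by the pair of DDB1 and DDB2 where the lesion bends DNA little. The protein of Ercc8, known in humans as CSA, acts where RNA polymerase has stalled on a transcribed strand. The helicases ERCC3 and ERCC2 of the complex TFIIH then open the helix, and XPA checks the lesion and holds the complex together. The pair of ERCC1 and ERCC4 cuts on one side of the lesion and ERCC5 on the other, and polymerases and a ligase fill and seal the gap. In humans, loss of most of these proteins causes xeroderma pigmentosum, with extreme sensitivity to sunlight, and loss of CSA causes Cockayne syndrome. In mice, XPA has been described as an output of the circadian clock in liver and skin, which is why the daily course of these transcripts is of interest here.

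Keratins of the epidermis and the hair follicle were strong in every pool. The basal keratinocyte gene Krt5 lay between 13851 and 15797 intensity units over the pools, the suprabasal keratin Krt10 between 9655 and 12050.0, and Krt25, a keratin of the growing hair follicle, between 15414 and 16833. Array medians lay between 440.0 and 483.2, and pools correlated with one another at 0.978 to 0.996 across the genes. Marker levels of other cell types varied. The mean of 10 skeletal muscle genes spanned 2.16-fold between its lowest (ZT2) and highest (ZT30) pool. That of 7 hepatocyte genes spanned 9.56-fold, with its highest value in the ZT46 pool. Among the 7, Alb lay between 1027 and 10035 intensity units (median 2597), so its highest value came within the range of Krt10. How liver transcripts came into the skin pools was not tested. The wave, drift and dark against light values of the 10 repair genes were therefore also computed without each pool in turn.

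The first question was whether repair genes follow a 24 h wave. None of the 10 did by the test used, which fitted a cosine of 24 h period beside a linear trend in limma. The fitted folds, peak over trough, lay between 1.02 for Ercc2 and 1.13 for Xpa, with a median of 1.07 beside 1.09 over all genes tested. Over all genes 0.141% passed at an adjusted p under 0.05 (23 of 16322), so a count of 0 among 10 is near the background. At an unadjusted p under 0.05 there were again 0 of 10, beside 9.54% of all genes, and the smallest adjusted p among the 10 was 0.566, for Ddb2.

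The pools set a limit to the waves that could have been missed. The upper 95% bound of the fold was lowest for Ddb1 at 1.17 and highest for Xpa at 1.34, with a median of 1.22. In the same pools Dbp, a direct target of the clock's activators, had a fold of 5.85, Nr1d1, a repressor of the clock's activators, one of 5.66, and Per2, a repressor of the feedback loop, one of 2.38 (limma, adjusted p at most 0.00228 for the 3). Cry1, a repressor that shares ancestry with the photolyases that repair UV damage in other organisms, had a fold of 1.38 (adjusted p = 0.237). Only 7 of the 12 clock genes listed passed this test, so it also missed clock genes. Among those that did not pass were Per1, with a fold of 1.69 (limma, adjusted p = 0.476), and Hlf, with 1.78 (0.0750). In the fit to all 13 pools, Clock (1.27) and Cry2 (1.33) of the 12 clock genes listed had fitted folds below the upper bound of Xpa. Those of the other 10 lay above the upper bounds of all 10 repair genes. This sets fitted folds against bounds, and the bounds are given for this fit only. Without ZT18 the fitted amplitude of Xpa was 0.130 log2, beside 0.087 with all pools.

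**Figure D1:**
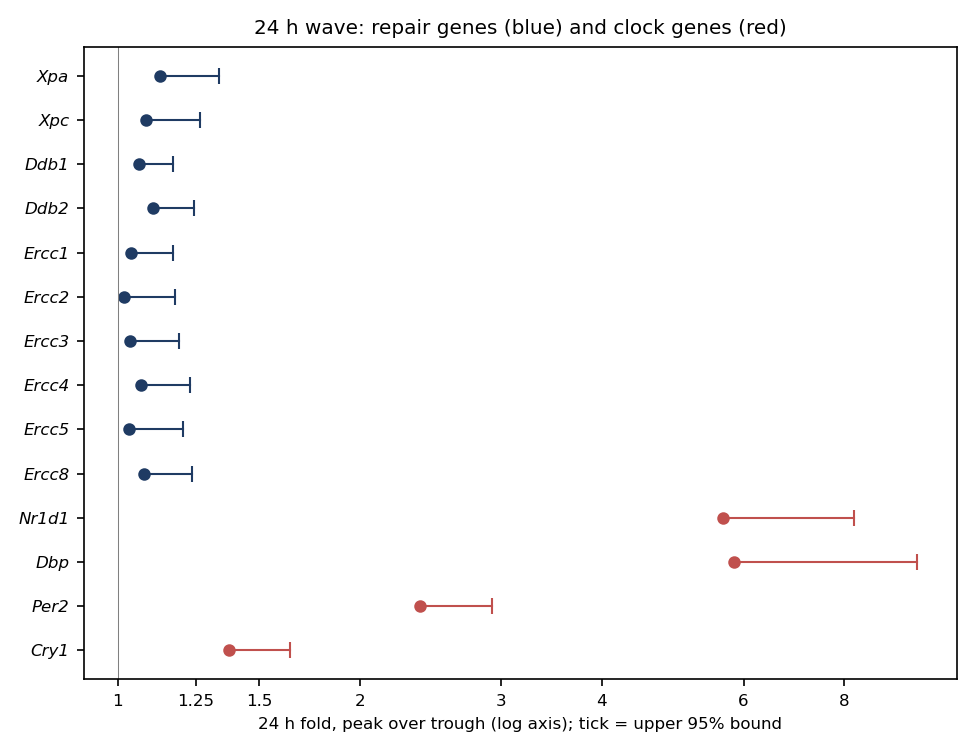
The 24 h fold, peak over trough, on a logarithmic axis, for the 10 repair genes (blue) and 4 clock genes (red) over 13 pools. Dots are the fitted folds and ticks the upper 95% bounds. The repair genes' bounds end between 1.17 and 1.34, and the clock genes drawn, 4 of the 12 listed, start at the 1.38 fitted for Cry1. Clock (1.27) and Cry2 (1.33) are not drawn.

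Of the damage recognition genes, Ddb2 came nearest to a daily wave. Ddb2 encodes the subunit that binds UV lesions in chromatin. In order from ZT2 to ZT22 its intensity was 367, 386, 417, 439, 392 and 367, from ZT26 to ZT46 it was 390.1, 385, 423, 373, 399 and 378, and at ZT50 it was 380.3. The values at 10 h after lights on were high on both days, 419.8 ± 4.45 (SD, n = 2), against 372.1 ± 7.87 (SD, n = 2) at 22 h, but the 14 h pools differed from each other, 439 at ZT14 and 373 at ZT38. The fitted amplitude was 0.072 ± 0.031 log2 (SE, 13 pools) with a peak at 11.9 ± 1.7 h (SE), a fold of 1.11 (limma, adjusted p = 0.566, unadjusted p = 0.0941). Without the ZT38 pool the amplitude was 0.101 log2 (limma, adjusted p = 0.492, unadjusted p = 0.0153). This was the only 1 of 13 pools whose removal brought the unadjusted p under 0.05, and the adjusted p stayed at or above 0.492 throughout.

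Xpc encodes the sensor that starts repair across the whole genome. Its lowest, median and highest pool values were 528, 562 and 669.8, and 2 pools stood out, ZT34 at 669.8 and ZT18 at 649. These lie 16 h apart on successive days, at 10 h and 18 h after lights on, and the other pools of the same hours were at 541 (ZT10) and 582 (ZT42). The fitted fold was 1.08 (upper bound 1.26, adjusted p = 0.777). Ddb1, the adaptor that links DDB2 to the CUL4 ubiquitin ligase, varied least of the 10, with a coefficient of variation of 3.74% over the pools and a range of 5071 to 5683. Its 3 lowest pools followed one another, 5138 at ZT34, 5105 at ZT38 and 5071 at ZT42. Thus at ZT34 Xpc was at its highest and Ddb1 below all other light pools. The fitted fold of Ddb1 was 1.06 (upper bound 1.17, adjusted p = 0.703).

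Ercc8, which marks stalled RNA polymerase for the transcription-coupled branch, had a fitted fold of 1.08 (upper bound 1.24, adjusted p = 0.749), and its course over the 48 h is described with the drift. The helicase genes of TFIIH, Ercc2 (known in humans as XPD) and Ercc3 (XPB), shared their extreme pools: both were highest at ZT18 and lowest at ZT14. Ercc2 was at 1264 at ZT18 and 1022 at ZT14, a ratio of 1.23 after the pseudocount of 16, and Ercc3 at 2564 and 2161, a ratio of 1.19. The next day showed no such step, since Ercc2 was at 1040.1 at ZT42 and 1159 at ZT38 and Ercc3 at 2193 and 2322. On the first day 8 of the 10 repair genes were higher at ZT18 than at ZT14, beside 8588 of all 16322 genes, with a median ratio of 1.095. Ercc2 and Ercc3, whose extremes lie in these pools, are among the 8. On the second day 6 of the 10 were higher at ZT42 than at ZT38, beside 7743 of all 16322 genes, with a median ratio of 1.03. Of the other TFIIH genes, 5 of 7 were higher at ZT18 on the first day, with a median ratio of 1.01, close to the 1.01 of all genes. A day later 3 of these 7 were higher at ZT42 than at ZT38, with a median ratio of 0.984, beside 0.995 for all genes. Each of these steps compares 1 pool with 1 pool and has no replicate. The fitted 24 h folds were 1.02 for Ercc2 (adjusted p = 0.987) and 1.04 for Ercc3 (adjusted p = 0.936). Such small amplitudes moved with single pools: that of Ercc2 was 0.012 log2 and 0.048 without ZT14, and that of Ercc3 was 0.025, 0.067 without ZT18 and 0.0077 without ZT30.

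**Figure D2:**
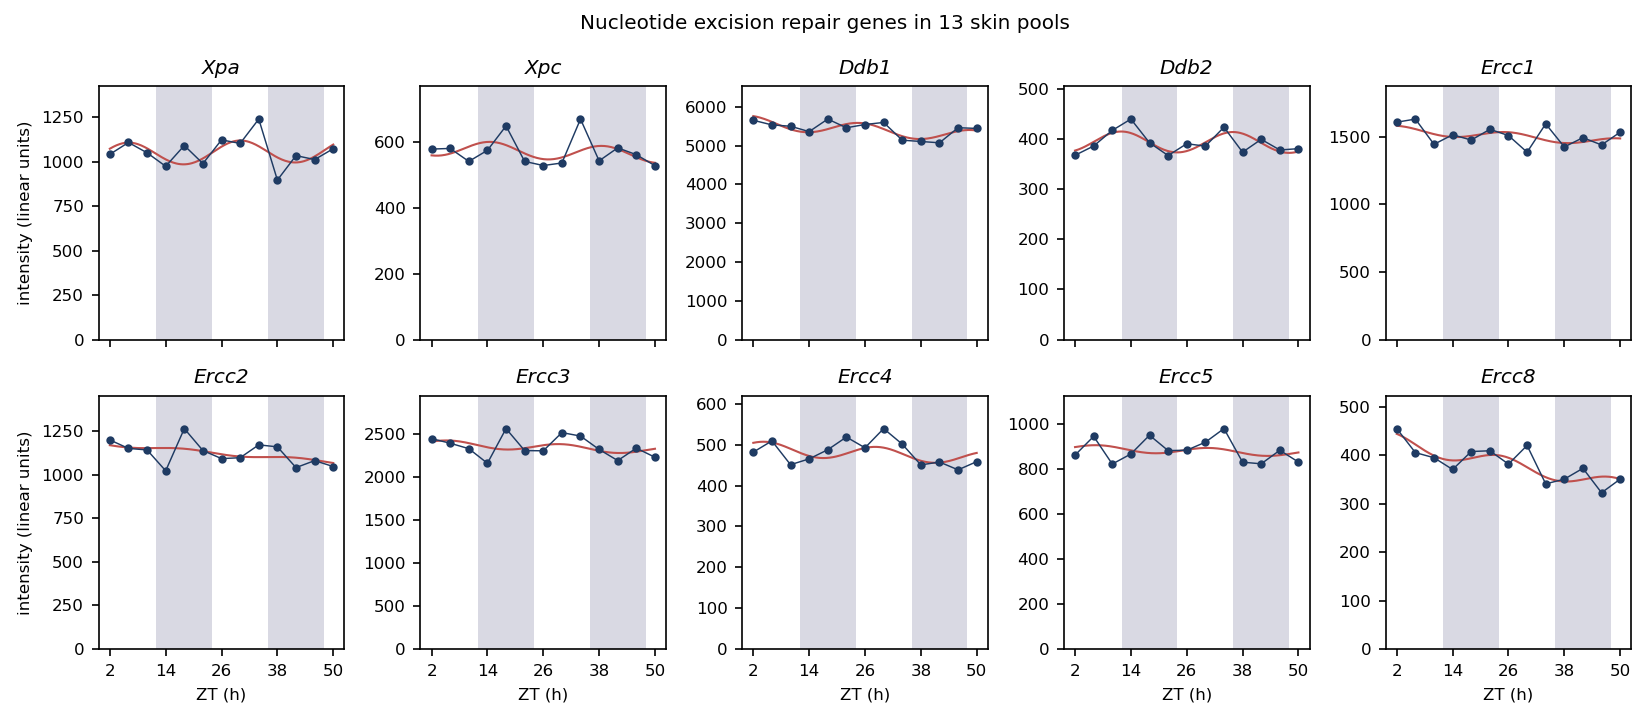
Intensity (linear units, axes from 0) of each repair gene in the 13 pools by ZT in hours, with dark hours shaded. Points are pools and the red line is the fitted 24 h wave with its linear trend. The lines are shallow in all panels, Ddb2 tops 417 at ZT14 and ZT34, Ercc2 and Ercc3 jump between ZT14 and ZT18, and Ercc8 runs downward.

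Xpa, the scaffold of the incision complex, had the largest fitted wave of the 10. From ZT2 to ZT22 its intensity was 1041, 1108, 1050.0, 974, 1091 and 989, from ZT26 to ZT46 it was 1123, 1103, 1239.6, 897, 1034 and 1012, and at ZT50 it was 1073. The highest pool (ZT34) was followed 4 h later by the lowest (ZT38). The fitted amplitude was 0.087 ± 0.044 log2 (SE, 13 pools) with a peak at 5.9 ± 1.8 h (SE), in the middle of the light (limma, adjusted p = 0.636, unadjusted p = 0.181). Leaving out single pools moved the amplitude between 0.072, without ZT34, and 0.130, without ZT18 (limma, unadjusted p = 0.0496). The adjusted p-values stayed at or above 0.499.

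The proximal promoter of Xpa is shown because clock control has been described for this gene. It is taken from RefSeq (GRCm38.p6, chr4:46196262-46196561, minus strand, written along the gene), from 250 bases before to 50 bases after the start. It was searched on both strands for the E-box CACGTG and its variant CACGTT, which the clock's activators bind, the D-box TTATGTAA bound by DBP and its relatives, and AGGTCA, the half-site bound by the REV-ERB and ROR receptors. None of these letters occurs in this window, so nothing is in capitals.
Xpa: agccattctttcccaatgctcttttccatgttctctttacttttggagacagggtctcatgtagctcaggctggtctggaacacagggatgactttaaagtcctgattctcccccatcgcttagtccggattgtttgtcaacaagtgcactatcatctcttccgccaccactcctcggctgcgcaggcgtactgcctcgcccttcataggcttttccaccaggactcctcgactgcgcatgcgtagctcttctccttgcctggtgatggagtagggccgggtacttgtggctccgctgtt

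Promoter windows were matched for 7 of the 10 genes, Xpa, Ddb1, Ercc1, Ercc2, Ercc4, Ercc5 and Ercc8, with Xpc, Ddb2 and Ercc3 named only. Of all 32851 windows of this length in the table, 7.15% hold CACGTG, 4.68% CACGTT, 0.938% TTATGTAA and 16.3% AGGTCA. The windows of Ercc8 and Ddb1 hold 1 match each, and the other 5 hold none. The matches are shown with 12 bases to each side, where capitals mark the match. In Ercc8 (chr13:108158489-108158518, plus strand) the E-box begins at position -237 from the start, and in Ddb1 (chr19:10605563-10605592, plus strand) the variant lies on the opposite strand at position -22.
Ercc8: atggtccgtgccCACGTGctccctcacctc
Ddb1: tctctggcctgcAACGTGtctcaggggcgg
A match is a description of the letters, and the 24 h fold was 1.08 for Ercc8 and 1.06 for Ddb1, neither past the test.

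The nucleases that make the cuts were also without a detected wave. Ercc5 (known in humans as XPG) had a lowest, median and highest value of 823, 882 and 980.3 and a fitted fold of 1.03 (adjusted p = 0.955). Ercc1 and Ercc4 (XPF) encode the subunits of a single nuclease. Ercc1 ranged from 1385 at ZT30 to 1629.7 at ZT6 with a fold of 1.04 (adjusted p = 0.906), and Ercc4 from 439 at ZT46 to 539.6 at ZT30 with a fold of 1.07 (adjusted p = 0.801). The pool with the highest Ercc4 thus had the lowest Ercc1.

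Skin is exposed to sunlight by day, so the 6 dark pools were set against the 7 light pools, with linear time in the fit. None of the 10 genes passed, and Xpa stood nearest. Over all genes 0.00613% passed at an adjusted p under 0.05 (1 of 16322). At an unadjusted p under 0.05 there was 1 of 10, Xpa, beside 12.4% of all genes, so the count is near the background.

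Xpa had a lowest, median and highest value of 897, 1001 and 1091 in the dark pools, against 1041, 1103 and 1239.6 in the light pools. The groups overlapped through 1 dark pool, ZT18 at 1091, and the other 5 dark pools lay below every light pool. How many of all genes split as far over the 13 pools was not counted, so this split cannot be called unusual. The difference was -0.15 ± 0.05 log2 (SE, 95% interval -0.26 to -0.034), lower in the dark (limma, adjusted p = 0.360, unadjusted p = 0.0150). On the second day Xpa averaged 981 ± 73.8 in the dark and 1155 ± 74.0 in the light (SD, n = 3 each), a difference of -0.23 log2 with no overlap. Of all genes tested 18.9% had their 3 dark pools below the 3 light ones on that day, and 41% did not overlap in one direction or the other. On the first day it averaged 1018 ± 63.5 in the dark and 1066.5 ± 36.2 in the light, a difference of -0.067 with overlap. Whether the difference itself changed between days was not tested. Without the ZT34 pool the difference was -0.12 (adjusted p = 0.527). Over all single pools left out it lay between -0.18 and -0.12, with adjusted p-values at or above 0.196 (limma, unadjusted p at most 0.0421). The muscle marker mean differed by -0.29 log2 (dark minus light), with 10 of 10 genes below 0 and overlapping ranges (11.6 to 12.6 log2 in the dark, 11.5 to 12.6 in the light). With the muscle and adipocyte means in the fit Xpa differed by -0.15 (limma, adjusted p = 0.483, unadjusted p = 0.0346). The hepatocyte marker mean differed by 0.62 log2, with 0 of 7 genes below 0 and ranges of 8.45 to 11.7 log2 in the dark and 8.44 to 9.53 in the light. Without the ZT46 pool, where it was highest, Xpa differed by -0.15 (adjusted p = 0.503), and the part of hepatocyte RNA in the other pools was not tested.

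The other repair genes showed smaller steps. Their differences lay between -0.049 log2 for Ercc4 and 0.034 for Xpc, with adjusted p-values from 0.678 to 0.997. Counted with Xpa, 8 of the 10 differences were below 0 in this fit (Xpc and Ercc2 above), while by plain means 9 were lower in the dark (Xpc higher). The fitted differences had a median of -0.024 beside 0.012 over all genes. On the second day the 3 dark pools of Ercc4 and of Ercc5 also lay below the 3 light ones, which makes 3 of 10 with Xpa beside the 18.9% of all genes. On the first day it was 0 of 10 beside 6.05%. Ercc4 averaged 449 ± 9.68 in the dark and 511 ± 24.9 in the light that day, and 491 ± 26.8 in the dark and 481 ± 29.1 in the light on the first day. Ercc5 averaged 846 ± 32.9 in the dark and 928 ± 48.6 in the light on the second day, and 900.2 ± 44.5 in the dark and 877 ± 62.8 in the light on the first (SD, n = 3 each). For both genes the sign turned between the days. Their dark pools of the second day include ZT46, where the hepatocyte marker mean was highest, and its part in these averages was not tested.

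**Figure D3:**
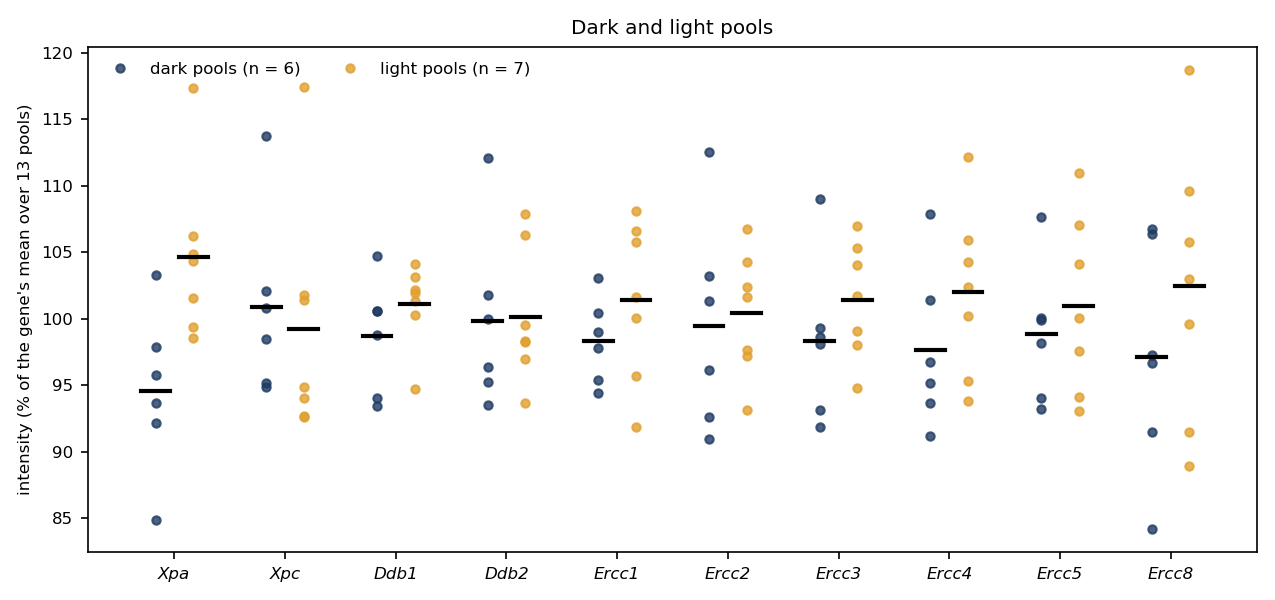
Intensity of each pool as a percentage of the gene's mean over 13 pools, for 6 dark pools (blue, left) and 7 light pools (yellow, right), with bars at the group means. For Xpa 5 of the 6 dark pools lie below all light pools, while the other genes' groups overlap more widely. The share of all genes with such a split was not counted.

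The third question was whether levels moved across the 48 h. None of the 10 passed for drift, and over all genes 0% passed (0 of 16322, smallest adjusted p = 0.246). At an unadjusted p under 0.05 there was 1 of 10, Ercc8, beside 8.8% of all genes. Slopes were below 0 for 9 of the 10, with a median of -0.032 log2 per 24 h, and 9225 of the 16322 genes also had a slope below 0, with a median of -0.010.

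Ercc8 was highest in the first pool, ZT2, and lowest in the last but one, ZT46. In ZT2 the muscle marker mean was at its lowest (11.5 log2), and in ZT46 the hepatocyte marker mean was at its highest (11.7 log2). From ZT2 to ZT22 its intensity was 455, 405, 395, 371, 408 and 409, from ZT26 to ZT46 it was 382, 420.2, 341, 351, 373 and 323, and at ZT50 it was 351. The second day averaged 365 ± 34.6 and the first 407 ± 27.5 (SD, n = 6 each), with 5 of 6 pools lower on the second day than at the same hour on the first. The slope was -0.16 ± 0.04 log2 per 24 h (SE, 95% interval -0.26 to -0.071, limma, adjusted p = 0.326, unadjusted p = 0.00209). It lay between -0.18 and -0.14 when single pools were left out, with adjusted p-values at or above 0.185 (limma, unadjusted p at most 0.0135). Marker means of several cell types had slopes of the same sign: -0.061 for proliferating cells (4 of 5 genes below 0), -0.057 for basal epidermis (5 of 6) and -0.053 for anagen hair follicle (7 of 8). Smaller ones were -0.039 for differentiated epidermis, -0.032 for hepatocytes, -0.012 for adipocytes and -0.0088 for melanocytes. Others had the opposite sign. The muscle mean had a slope of 0.29, with 0 of 10 genes below 0, and the endothelial mean one of 0.059, with 0 of 6 below 0. Macrophages and dendritic cells had 0.024 (1 of 6 below 0) and dermal fibroblasts 0.014 (3 of 6). With the muscle and adipocyte means in the fit the slope of Ercc8 was -0.18 (limma, adjusted p = 0.944, unadjusted p = 0.00549). The part of the other cell types was not tested.

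The remaining slopes lay between -0.065 log2 per 24 h for Ercc2 and 0.015 for Xpa, with adjusted p-values from 0.673 to 0.988. Ddb1 had a slope of -0.048 and averaged 5319 ± 239 on the second day and 5530.4 ± 121 on the first (SD, n = 6 each). Ercc1 averaged 1474 ± 74.5 on the second day and 1537 ± 73.5 on the first, a difference within the spread between pools.

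**Figure D4:**
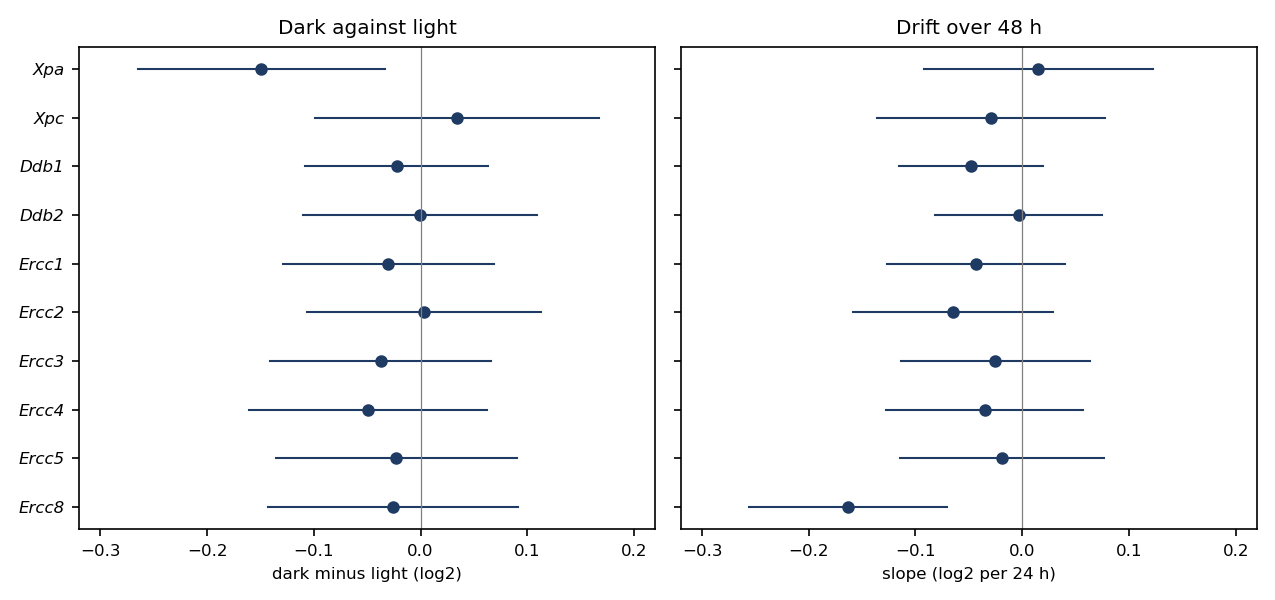
Dark minus light in log2 (left) and slope in log2 per 24 h (right) of the 10 repair genes over 13 pools, with 95% intervals from the limma fit. Xpa is lowest on the left at -0.15 and Ercc8 on the right at -0.16, and these 2 intervals exclude 0 before adjustment over all genes.

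The rest of the pathway was without calls as well. Of 41 other excision repair genes tested, 0 passed for the wave, for drift or for dark against light (limma). Over all genes the shares that passed were 0.141%, 0% and 0.00613%. At an unadjusted p under 0.05 there were 3 for the wave, 5 for drift and 1 for dark against light. The shares of all genes were 9.54%, 8.8% and 12.4%. Their median 24 h fold was 1.06 and the highest 1.20. Among 7 genes of recognition and its ubiquitin ligase, Rad23b, the partner that stabilises XPC, had a fold of 1.18 with a fitted peak at 3.0 h (adjusted p = 0.449), and Rbx1, the ring finger subunit of the ligase, 1.11 (0.604). In the transcription-coupled list of 8, Elof1, an elongation factor that aids repair at stalled polymerase, had 1.17 at 4.2 h (0.505), and Polr2b, a large polymerase subunit, 1.13 (0.564). Of 7 TFIIH genes, the subunit gene Gtf2h3 had 1.16 (0.540) and Gtf2h5, the small subunit that stabilises the complex, 1.099 (0.615).

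Among 19 genes of single-strand binding and gap filling, Pold4, the smallest subunit of DNA polymerase delta, had the highest fold, 1.20 at 4.4 h (adjusted p = 0.444). Its dark minus light difference was -0.18 ± 0.05 log2 (SE, adjusted p = 0.346). Rfc3 of the clamp loader had a fold of 1.16 (0.554). In this list 17 of 19 slopes were below 0, with a median of -0.042 log2 per 24 h. Of all 16322 genes 9225 had a slope below 0, with a median of -0.010. The marker mean of proliferating cells had a slope of -0.061, and its part in this list was not tested. Rfc5, also of the clamp loader, had the steepest slope of those named, -0.17 ± 0.04 (SE, adjusted p = 0.325). Parp1, which senses DNA breaks and aids damage recognition, had a slope of -0.13 ± 0.04 (SE, 0.365). Of 8 regulators of XPA and the UV response 6 were tested (not Trp53 and Cdkn1a) and 0 passed in the 3 comparisons (limma). At an unadjusted p under 0.05 there were 0 for the wave, 1 for drift and 0 for dark against light. The shares of all genes were 9.54%, 8.8% and 12.4%. The deacetylase Sirt1, which acts on XPA, had a 24 h fold of 1.12 (0.589), and Atrip, the partner of the damage kinase ATR, 1.105 (0.617).

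**Figure D5:**
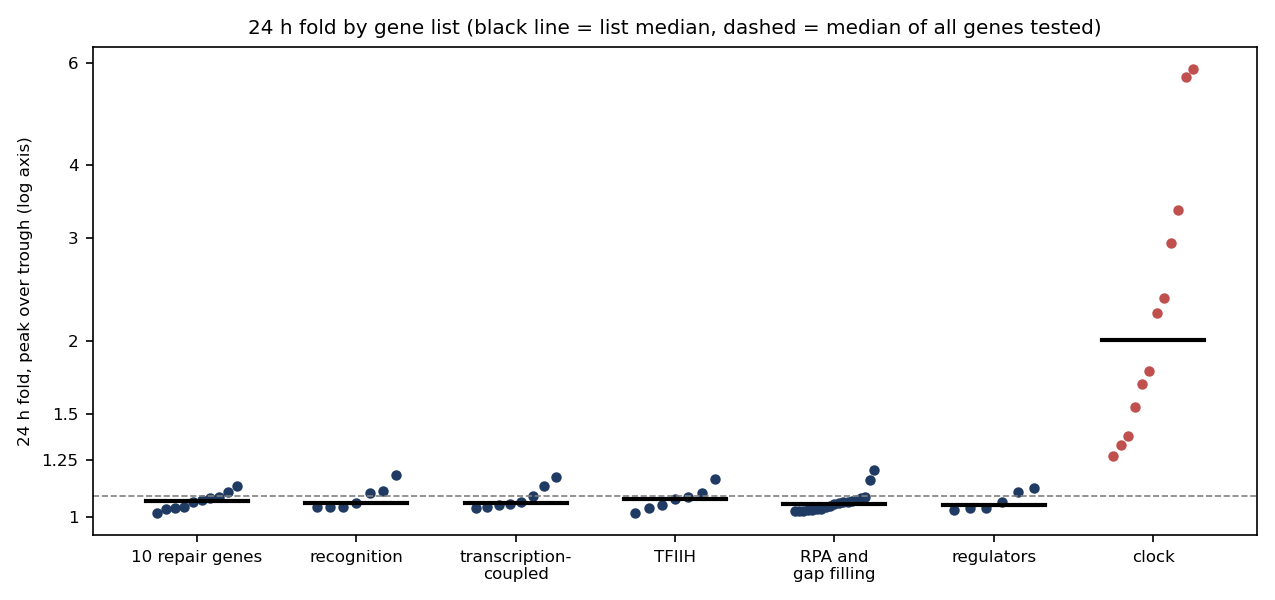
The 24 h fold, peak over trough, on a logarithmic axis for the 10 repair genes, 5 other lists of the pathway and its regulators (blue), and 12 clock genes (red). Black lines are list medians and the dashed line is the median of all genes tested, 1.09. The highest fold in the pathway lists is 1.20, while the clock list has a median of 2.01, with 7 of its 12 genes past the test.

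The genes whose log2 values ran most like those of Xpa over the 13 pools were Akap7 (Pearson r = 0.90), Tubgcp2 (0.89) and Fbxl20 (0.89), among 16321 others. Of the other repair genes Ercc5 was nearest, with r = 0.67 and rank 354, and Ercc8 farthest, with r = 0.071. Most like Ddb2 were Tns1 (0.92), Fam13a (0.90) and Fam180a (0.90). Fam13a passed the test for the 24 h wave (fold 1.74, fitted peak at 12.0 h, adjusted p = 0.0285). Ddb2 and its partner Ddb1 had r = -0.29. These values describe 13 pools that share their arrays, and high values are to be found among so many genes.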

How the data were processed

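Total RNA of 13 pools of mouse back skin was measured on 1-colour Affymetrix whole-transcript arrays, per the labels' protocols. The deposited values span a range that only a linear intensity scale gives. The submitters' processing notes name the tools Affymetrix Expression Console (1.1.1) and PLIER (2.0) without saying what each did. Scaling between arrays and the genome build are not given in the sources used here. The number of arrays limits the precision.

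Of 35557 probes, 21789 had 1 gene symbol. RefSeq's mouse table (GRCm38.p6), used for names, held 21698 of these and changed 0. Values were converted to log2(intensity + 16), so folds understate the change of dim genes. Probes whose mean reached the 25th percentile (7.61 log2) were kept, with the highest-mean probe per gene. limma 3.58.1 in R 4.3.3 fitted cosine and sine terms of 24 h with linear time, or dark against light with linear time, with Benjamini-Hochberg adjustment over 16322 genes and calls at an adjusted p under 0.05. The upper 95% bound adds to the amplitude its SE times the root of 2 F, with F at its 95% point. Pools came from different mice, and p-values rest on the spread among pools.

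All 10 repair genes are named. Of the other pathway lists the 2 genes per list with the smallest p for the wave and the 2 over all lists with the smallest p for drift are named, and for likeness the 3 with the highest correlation, passing over predicted genes. Members and lists were chosen with earlier results of these data known. Tested on simulated data with 200 of 16322 genes changed, the wave fit recovered 39% at an amplitude of 0.2 and 74% at 0.3. The drift fit recovered 28% at 0.2 per 24 h and the dark against light fit 59.5% at 0.3. With few truly changed genes the adjustment is stricter, so these shares are likely too high. Figures used matplotlib 3.10.9. Alternatives were other scalings, pseudocounts, filters, probes, priors, covariates and thresholds, and leaving out each pool.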

Additional observations from a re-analysis of the deposited data

Results flagged for a closer look

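In 20 groups of values (the dark and the light pools of each of the 10 repair genes), 3 held a pool set apart from its neighbours by a gap that was large for the range, where chance gives about 1 in 20. All 3 were the ZT34 pool among the 7 light pools. The gap divided by the range was 0.5695 for Xpa (highest, 1239.6), 0.6025 for Xpc (highest, 669.8) and 0.6023 for Ddb1 (lowest, 5138). Over the 10 genes the median distance from each gene's own median was 0.11 log2 in this pool, beside 0.079 over all genes tested. The adipocyte marker mean of 7 genes, which ranged from 10.96 to 11.4 log2 over the pools, and the endothelial mean of 6 genes, which ranged from 9.50 to 9.76, were at their highest in this pool. Their part in these values was not tested.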

How the results depend on the processing

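Under every alternative run, 0 of the 10 repair genes passed for the 24 h wave, drift or dark against light. Ddb2 and Ercc8 fall below the filter at the 50th percentile and have no value there, and with cycle number as a factor ZT50 is alone in its cycle and adds nothing. The smallest adjusted p of any repair gene was 0.185. Over all genes the wave count of 23 was 12 at an adjusted p under 0.01, 15 with no filter, 14 with all probes, 12 with muscle and adipocyte covariates, 9 with a factor of 6 times of day, and 13 (without ZT18) to 30 (without ZT46) with single pools left out. For dark against light the count of 1 was 0 at an adjusted p under 0.01, with quantile normalization, with a pseudocount of 64, with no filter, with all probes, with an intensity trend and with the covariates, 2 with the 50th percentile filter and with no linear time, and 0 to 4 with single pools left out. The cause of these changes was not tested. Of 456 slopes and dark minus light differences of repair genes under alternatives, 31 changed sign, all from values not past the test. The amplitude of a wave has no sign. With single pools left out, those of Ercc1 (0.019 to 0.052), Ercc2 (0.0072 to 0.048), Ercc3 (0.0077 to 0.067), Ercc4 (0.027 to 0.064) and Ercc5 (0.013 to 0.060) moved by over 1.5 times. Other alternatives went above these ranges. The muscle and adipocyte covariates gave amplitudes of 0.071 for Ercc1, 0.054 for Ercc2 and 0.083 for Ercc3, and median centring gave 0.078 for Ercc4. For dark minus light, median centring gave -0.0099 for Xpc and -0.041 for Ercc2, no linear time -0.016 and cycle number as a factor -0.034 for Ercc2, and the covariates 0.040 for Ddb2 and -0.035 for Ercc2. Leaving out single pools gave -0.0059 to 0.089 for Xpc, -0.044 to 0.024 for Ddb2, -0.035 to 0.050 for Ercc2, -0.051 to 0.0087 for Ercc5 and -0.051 to 0.0034 for Ercc8. For slopes, the covariates gave 0.0053 for Xpc, 0.020 for Ercc3 and 0.0064 for Ercc5, and single pools left out gave -0.020 to 0.045 for Xpa, -0.017 to 0.017 for Ddb2, -0.044 to 0.0019 for Ercc3 and -0.046 to 0.0076 for Ercc5. No test paired by hour was run. The labels give no replicate numbers, and pools of the same hour on the 2 days came from different mice and were only set side by side.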
